A study of Danio rerio with 20 samples.

Results

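In RNA sequencing of whole zebrafish (Danio rerio) larvae, the exposed pools were split into 2 sets by a score, and every treatment had pools in both. The 15 exposed libraries, of 20 in the series, fell into 8 with positive and 7 with negative scores on the first principal component of log2 CPM (read counts scaled to a common library total), the axis along which the libraries differ most. They were chosen by those measured scores, and are called PC1-positive and PC1-negative pools below. The PC1-positive pools were LCO 1 mg/L replicates 1 and 2, LCO 10 mg/L replicates 2, 3, 4 and 6, and ion replicates 4 and 6. The PC1-negative pools were LCO 1 mg/L replicates 3, 5 and 6, LCO 10 mg/L replicate 1, and ion replicates 1, 2 and 3. LCO stands for lithium cobalt oxide, given as nanosheets, and the makeup and dose of the ion treatment are not given in the labels. All 20 libraries came from wild type larvae of the strain labelled WT, sampled at 10 days post-fertilization, each from a pool of 20 larvae fed a powdered larval food from day 5. Exposure lasted 48 hours, each of the 3 treatments had 5 libraries, and 5 libraries came from untreated larvae (controls). The labels do not say whether pools shared parents, tanks or days, so the spread between pools may be partly technical. Whether pools of the 2 sets came from different clutches, stocks, tanks or days is likewise not given, cannot be told apart from the separation described here and was not tested. Per the series' design text, the samples sequenced had been picked by RNA quality out of 6 per treatment.

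Lithium cobalt oxide is a cathode material of rechargeable batteries and can release lithium and cobalt ions in water. Zebrafish larvae of this age swim, feed and digest, and RNA from a whole larva mixes that of muscle, gut, liver, nervous system, skin and blood. A level in a pool is an average over larvae and tissues, so fewer larvae or cells that carry a transcript and less of it in each cannot be told apart. The values are read counts estimated per Ensembl transcript, shared out among transcripts of similar sequence, so a transcript can differ because its gene differs or because reads are assigned to another transcript. Of the 57775 identifiers, 0 were found in the gene tables used here, so neither genes nor tissues are named, the label of whole larvae could not be checked against marker genes, and transcripts are given by identifier and length.

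Because the scores were computed from the same counts, every difference in transcript level between the PC1-positive and PC1-negative pools is a description of what set them apart, with no test. The first component held 14.7% of the variance of 39355 transcripts. Among PC1-positive pools the highest score was 90.4, in LCO 1 mg/L replicate 2, and replicate 1 of that treatment lay between 61.1 and 84.8. The scores were 84.8, 52.0, 20.9 and 60.4 in LCO 10 mg/L replicates 2, 3, 4 and 6, and 42.1 and 61.1 in ion replicates 4 and 6. Among PC1-negative pools they were -30.9, -34.2 and -40.7 in LCO 1 mg/L replicates 3, 5 and 6, -35.1 in LCO 10 mg/L replicate 1, and -39.4, -42.7 and -20.8 in ion replicates 1, 2 and 3. The 5 controls ranged from -60.2 to -29.3. The pools nearest to 0 were LCO 10 mg/L replicate 4 on the positive side, at 20.9, and ion replicate 3 on the negative side, at -20.8. No pool lay between these scores, and no control was positive (0 of 5). All 15 exposed pools also kept their sign when the component was computed from the 15 exposed libraries alone, from the 500 or 5000 most variable transcripts, from transcripts with an average log2 CPM of at least 1, with unit variance per transcript, with a prior count of 10 or with DESeq2 size factors. From the exposed libraries alone, however, LCO 10 mg/L replicate 4 scored 8.62 and ion replicate 3 scored -18.0. The next pools were LCO 1 mg/L replicate 1 at 39.3 and ion replicate 1 at -43.9. The space between the sides was then narrower than that between LCO 10 mg/L replicate 4 and the next PC1-positive pool.

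**Figure D1:**
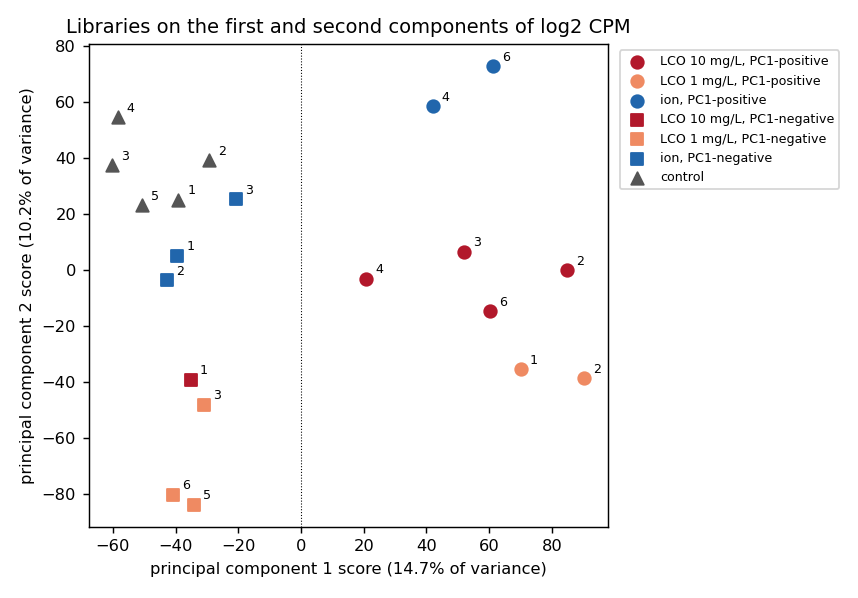
Scores of the 20 libraries on principal component 1 (x axis, 14.7% of variance) and 2 (y axis, 10.2% of variance) of log2 CPM, with the replicate number beside each point. Circles are PC1-positive, squares PC1-negative and triangles control libraries. Every treatment has pools on both sides of 0 on the x axis, while all 5 controls lie on the negative side.

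The 2 sets cut across the treatments. The exposed library nearest to each exposed library, by distance over all log2 CPM values, was on the same side for 15 of 15 and in the same treatment for 10 of 15. The median Euclidean distance, in log2 units over 39355 transcripts, was 182 between pools of 1 treatment on the same side (14 pairs) and 188 between pools of different treatments on the same side (35 pairs). It was 202 between pools of 1 treatment on opposite sides (16 pairs) and 207 between pools of different treatments on opposite sides (40 pairs). Pools of 1 treatment on opposite sides were thus farther apart, at the median, than pools of different treatments on the same side. PC1-positive pools lay at a median of 207 from controls and PC1-negative pools at 186, and among all 20 libraries a control was the nearest to 0 of 8 PC1-positive and 5 of 7 PC1-negative pools. For each of those 5 pools the nearest was the same library, control replicate 5. That library had the largest total of the series and was also the nearest to every other control, so this count rests on 1 control. Of the summed squares of log2 CPM over the 15 exposed libraries, the side took 15.03% after treatment and treatment took 16.9% after the side, with 1 and 2 degrees of freedom. The sides were set from these same counts, which favours short distances within a side and a large share for the side. The distances, nearest libraries and shares are therefore a description only.

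A few transcripts were present in the pools of one side and absent from the other. With at least 1 CPM in every pool of one side and at most 0.1 CPM in every pool of the other, there were 2 higher and 1 lower in PC1-positive pools, of 39858. The 4 described here had the largest fitted differences, 2 in each direction, among transcripts with an average log2 CPM of at least 1 whose PC1-positive and PC1-negative pools did not overlap, and 2 of them, ENSDART00000181742.1 and ENSDART00000184838.1, were of that all-or-none kind. ENSDART00000181742.1, of 330 bases, was at 116 and 216 CPM in LCO 1 mg/L replicates 1 and 2, at 228, 110, 404 and 157 CPM in LCO 10 mg/L replicates 2, 3, 4 and 6, and at 365 and 558 CPM in ion replicates 4 and 6. After rounding of the estimates, it had 0 counts in all 7 PC1-negative pools and in all 5 controls. With a mean of 269 ± 159 CPM in PC1-positive pools (SD, n = 8), it was at least 25792-fold higher there than the floor of 3 counts over the PC1-negative pools allows. In TPM, which accounts for length, its median was 1348 in PC1-positive pools, where its median rank in a library was 133.5 from the top, so this is one of the more abundant transcripts of those pools.

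ENSDART00000162546.3, of 3041 bases, also had 0 counts in all 7 PC1-negative pools and in all 5 controls. It was at 69.2 and 46.9 CPM in LCO 1 mg/L replicates 1 and 2, and at 268 and 141 CPM in ion replicates 4 and 6. In LCO 10 mg/L it was at 57.1 and 42.4 CPM in replicates 3 and 6, but replicates 2 and 4 held only 2 and 1 counts. The pools on the positive side were therefore not alike for this transcript, and the absence of overlap rests on those few counts. The mean of PC1-positive pools, 78.1 ± 88.5 CPM (SD, n = 8), was at least 7479-fold above the floor of 3 counts over the PC1-negative pools, and at least 4884-fold without ion replicate 4.

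ENSDART00000184838.1, of 1188 bases, showed the opposite pattern, with 0 counts after rounding, and at most 0.00072 TPM, in all 8 PC1-positive pools. It was at 44.3, 39.2 and 28.8 CPM in LCO 1 mg/L replicates 3, 5 and 6, at 21.2 CPM in LCO 10 mg/L replicate 1 and at 22.9, 35.2 and 33.5 CPM in ion replicates 1, 2 and 3. Controls 1 to 5 held 31.0, 15.3, 22.3, 14.6 and 34.4 CPM and so overlapped with the PC1-negative pools. Against the PC1-negative mean of 32.2 ± 8.43 CPM (SD, n = 7), the PC1-positive pools were at least 2949-fold lower, by the floor of 3 counts over the 8 pools.

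ENSDART00000186407.1, of 440 bases, was under 1 CPM in 7 of the 8 PC1-positive pools. It had 0 counts in 5 of the 8, 0.131 CPM in LCO 10 mg/L replicate 2, 0.639 CPM in ion replicate 4 and 7.64 CPM in LCO 1 mg/L replicate 1. In PC1-negative pools it was at 388, 357 and 367 CPM in LCO 1 mg/L, 200 CPM in LCO 10 mg/L replicate 1 and 282, 141 and 120 CPM in ion replicates 1, 2 and 3. Controls ranged from 50.2 to 300 CPM. The means were 1.05 ± 2.67 CPM in PC1-positive pools (n = 8), 265 ± 112 CPM in PC1-negative pools (n = 7) and 171 ± 104 CPM in controls (n = 5, SD in each case). The fitted log2 fold change was -8.06 ± 0.74 (SE), and -10.50 without LCO 1 mg/L replicate 1. Its median TPM was 0.0149 in PC1-positive and 1194 in PC1-negative pools.

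**Figure D2:**
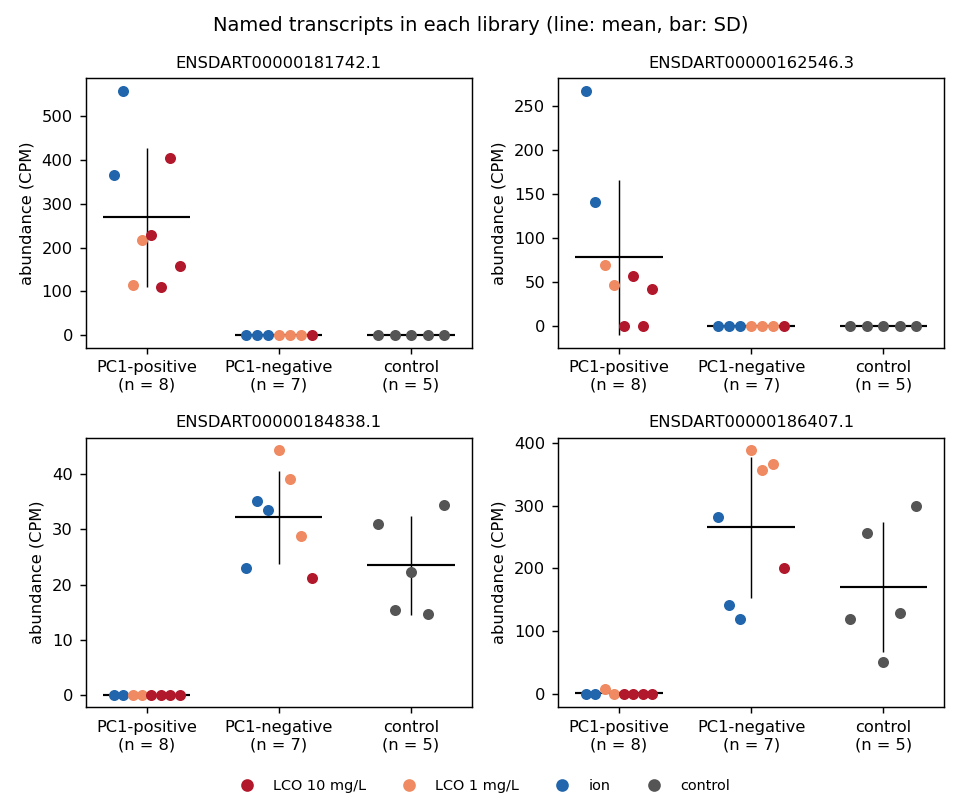
Abundance in CPM (y axes, linear) of the 4 named transcripts in each library, coloured by treatment, for PC1-positive, PC1-negative and control libraries (x axes). Horizontal lines are means and vertical bars SD. The upper 2 are at 0 in all PC1-negative pools and controls, ENSDART00000184838.1 is at 0 in all PC1-positive pools, and ENSDART00000186407.1 is under 1 CPM in 7 of the 8, with LCO 1 mg/L replicate 1 at 7.64 CPM.

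Past these 4, most of the next 10 transcripts in each direction by the same rule were not at 0 throughout a side. Of the next 10 higher ones, with lengths of 579 to 3244 bases, 2 had 0 counts in every PC1-negative pool. Of the next 10 lower ones, with lengths of 411 to 6310 bases, none had 0 counts in every PC1-positive pool (0 of 10). Their fitted log2 fold changes ran from 1.77 to 12.80 and from -6.64 to -3.50. Among the next 10 higher ones the lowest PC1-positive value was 0.0221 CPM, so the absence of overlap can rest on few counts there too.

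A wider set of transcripts switched with the side at the level of medians. In 74 transcripts (0.186% of 39858) the median was at least 1 CPM in PC1-positive pools and 0 in PC1-negative pools. In 70 (0.176%) it was 0 in PC1-positive pools and at least 1 CPM in PC1-negative pools. Both sets were of low abundance, with a median average log2 CPM of 0.21 and 0.34, beside 1.92 over all transcripts tested. The rule on medians largely sets how many of them an exposed pool holds, so the counts for exposed pools are a description. Of the 74, each PC1-positive pool had 57 to 71 at 0.1 CPM or more, PC1-negative pools had 10 to 35 and controls 23 to 34. Ion replicate 3 held 35, more than the 10 to 18 of the other 6 PC1-negative pools. Of the 70, PC1-positive pools had 12 to 34, PC1-negative pools 55 to 64 and controls 43 to 55. LCO 10 mg/L replicate 4 held 34, while no other PC1-positive pool had more than 17. The pools with scores nearest to 0 were thus also those with the most transcripts of the opposite side, a relation that follows in part from how the sets were chosen. The choice used no control value directly, and the 5 controls had counts in both sets.

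**Figure D3:**
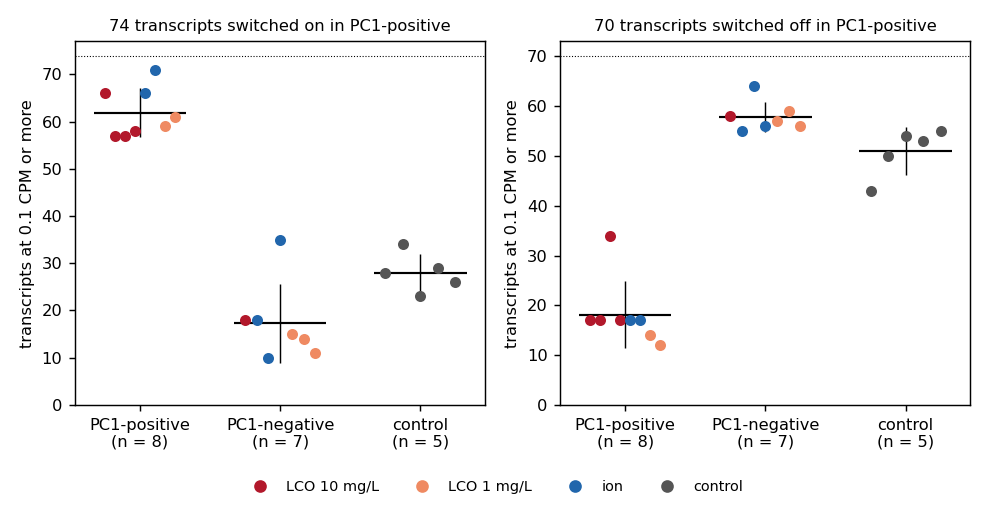
Number of transcripts at 0.1 CPM or more (y axes) in each library, of the 74 whose median was 0 in PC1-negative pools (left) and the 70 whose median was 0 in PC1-positive pools (right); dotted lines mark 74 and 70. Points are libraries coloured by treatment, lines are means and bars SD. Ion replicate 3, at 35, and LCO 10 mg/L replicate 4, at 34, stand apart from the other pools of their side.

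Many more transcripts differed by small amounts. In an edgeR fit of the 15 exposed libraries with treatment as a covariate, 6726 of 39858 transcripts (16.9%) had a Benjamini-Hochberg adjusted p under 0.05 for the side, 3346 higher (8.39%) and 3380 lower (8.48%) in PC1-positive pools. As the sides were set from these counts, this share describes the separation and supports nothing. The median fold was 1.33 among the 3346 and 1.26 among the 3380, against 1.15 in either direction over all transcripts tested. With the 8 and 7 pools not overlapping, 1409 transcripts stood apart (3.54% of those tested), 740 higher in every PC1-positive than in every PC1-negative pool (1.86%) and 669 lower (1.68%). Of these, 69 and 66 differed by at least 2-fold, as did 2535 of all 39858 tested. The 740 made up 89589 to 101468 CPM in PC1-positive pools, 62261 to 67939 CPM in PC1-negative pools and 65112 to 69418 CPM in controls. The 669 made up 52921 to 62730 CPM in PC1-positive pools, 71468 to 81361 CPM in PC1-negative pools and 71012 to 75763 CPM in controls. Each transcript was picked for not overlapping, so these sums could not overlap between the sides.

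In the summed levels of both sets the controls lay close to the PC1-negative pools. For single transcripts, all 5 controls lay below all 8 PC1-positive pools in 502 of the 740 higher transcripts, and above them in 342 of the 669 lower ones. The controls cleared all 7 PC1-negative pools, on the side of the PC1-positive ones, in 10 and 19. On a log2(CPM + 0.1) scale the control mean was nearer to the PC1-negative than to the PC1-positive mean in 695 of 740 and 592 of 669. The controls entered the component analysis, so their place is not independent of it. The 740 and 669 transcripts were also picked for not overlapping between exposed pools, which can itself affect where controls fall among them. No such counts are given over all 39858 transcripts tested. Without that background the counts for single transcripts cannot be judged as more or less than usual, and are a description only. The place of the controls in the summed levels is likewise a description only.

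Values within each treatment are given next. The 740 and 669 transcripts were picked for not overlapping over all pools, which fixes the sign of their difference in each treatment. The median log2 difference between PC1-positive and PC1-negative pools of the 740 transcripts was 0.49 in LCO 1 mg/L (2 against 3 pools), 0.40 in LCO 10 mg/L (4 against 1) and 0.36 in ion (2 against 3). That of the 669 was -0.45, -0.37 and -0.43 in the same order. Over 24888 transcripts with an average log2 CPM of at least 1, these within-treatment differences had a Pearson r across transcripts, which are not independent, of 0.39 between LCO 10 and LCO 1 mg/L, 0.58 between LCO 1 mg/L and ion and 0.47 between LCO 10 mg/L and ion. The treatments share no library, but 1 component set the sides in all 3, which makes a positive r part of the choice.

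Whether the side difference depended on treatment was examined by an interaction in the edgeR fit. The sides were set by 1 component shared by the treatments, which favours differences common to them, so few calls here do not show that the treatments were alike. With 2 degrees of freedom, 1 of 39858 transcripts was called (0.00251%), and 2405 had an unadjusted p under 0.05. For the side difference in LCO (mean of both doses) less that in ion there were 0 calls in edgeR, where 1648 transcripts fell under 0.05 before adjustment. By limma-voom there were 0 calls in both tests, with 2930 and 1718 under 0.05 before adjustment. Evenly spread p-values would put about 1 in 20 of the 39858 transcripts under 0.05. The 1648 and 1718 for LCO less ion were below that share, and the 2405 and 2930 with 2 degrees of freedom were above it. With sides set from these same counts, that share need not be the one chance gives here. Nothing is concluded from these counts. LCO 10 mg/L had 1 PC1-negative pool, which limits what this test can show. The 1 called transcript, ENSDART00000183224.1, of 2463 bases, was named after its values were seen and is of low abundance. In LCO 1 mg/L it had 0 counts in both PC1-positive pools and 2.18, 2.72 and 1.84 CPM in the 3 PC1-negative ones. In LCO 10 mg/L it was at 1.22, 0.577, 1.17 and 0.607 CPM in PC1-positive pools and 0.782 CPM in the PC1-negative one, and in ion at 1.30 and 2.43 CPM against 0.638, 0.512 and 0.431 CPM. It was thus lower on the positive side in LCO 1 mg/L and higher there in ion, with an edgeR adjusted p of 0.0274. That call was lost without ion replicate 2 (edgeR adjusted p = 0.0666), without LCO 1 mg/L replicates 1, 2, 3 or 6 (0.0576, 0.0515, 0.0565 and 0.0820) and with limma-voom (0.632). Control replicate 2 also had 0 counts of it, and the other 4 controls 1.27 to 2.67 CPM.

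Length, which the scores did not use directly, ran along the separation. The lists and fold changes set against length come from the same counts that set the sides. The length pattern is therefore a description only. The 740 transcripts higher in PC1-positive pools had a median length of 2455.5 bases (quartiles 1566 and 4278.75), the 669 lower ones 1153 bases (777 and 1818), and all those tested 1849.5 bases (1032 and 3165). The tested transcripts were split by length into 4 classes of near equal size. Of the longest class, from 3165 bases, 280 were among the 740 and 38 among the 669. Of the shortest class, up to 1032 bases, 88 and 292 were. The median log2 fold change over all transcripts of a class was higher the longer the class, at -0.083, -0.047, -0.006 and 0.053. The same order held in each treatment, from -0.123 to 0.076 in LCO 1 mg/L, from -0.024 to 0.031 in LCO 10 mg/L and from -0.086 to 0.046 in ion. As 1 component set the sides in all 3 treatments, a common order is favoured by that choice. The values of LCO 10 mg/L rest on 1 PC1-negative pool. These medians are small beside the differences of the named transcripts. With the transcripts also split into 3 classes of abundance, the spread was wider in the most abundant class, from -0.187 in the shortest to 0.055 in the longest, than in the least abundant class, where it ran from -0.039 to 0.034. The transcripts that differed by at least 2-fold were shorter. The 69 higher ones had a median of 1221 bases and the 66 lower ones 773 bases, both below the median of all those tested, with the higher ones again the longer.

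**Figure D4:**
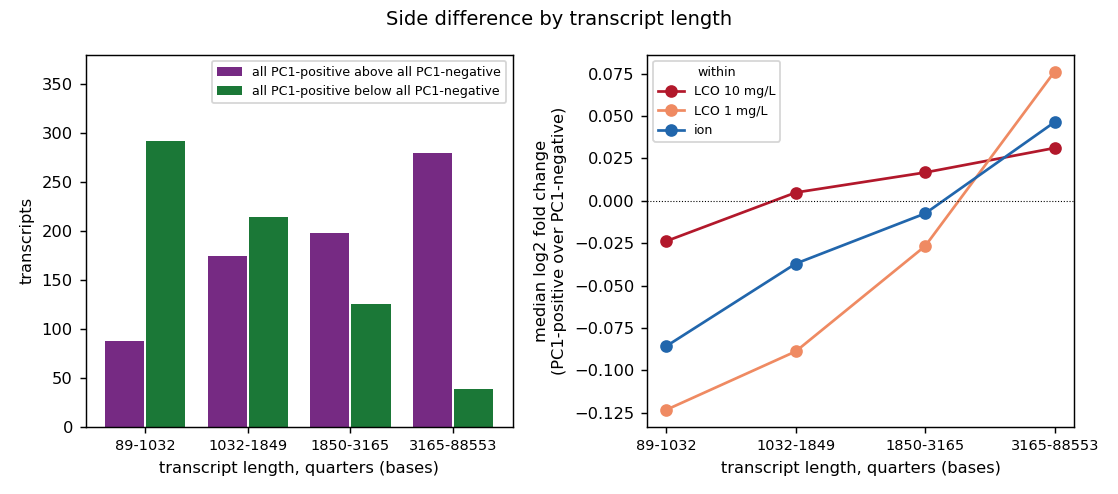
Left, number of transcripts (y axis) in which every PC1-positive pool lay above, or every one below, every PC1-negative pool, by class of transcript length (x axis, in bases, 4 classes). Right, median log2 fold change of PC1-positive over PC1-negative pools within each treatment, by the same classes. The count of higher transcripts grows from 88 to 280 with length and that of lower ones falls from 292 to 38, and all 3 lines climb.

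In whole libraries, transcripts over 3000 bases took 30.6% to 34.4% of counts in PC1-positive pools, 29.3% to 30.7% in PC1-negative pools and 28.3% to 30.5% in controls. Transcripts under 1000 bases took 20.6% to 23.0%, 23.5% to 24.7% and 23.6% to 24.9% in the same order. For the short transcripts no PC1-positive pool overlapped with a PC1-negative one, and for the long ones only LCO 10 mg/L replicate 2 did, at 30.6%. These shares come from the counts that set the sides, so the lack of overlap is a description only. The 10 most abundant transcripts of a library took 8.41% to 14.2% of counts in PC1-positive pools, 7.98% to 8.47% in PC1-negative pools and 8.02% to 8.56% in controls.

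A measure of the libraries that the scores did not use directly also moved with the side. The deposited effective length of a transcript is its length less a gap set by the fragment lengths of the library. This gap was 167 and 164 bases in LCO 1 mg/L replicates 1 and 2, 166, 162, 158 and 164 bases in LCO 10 mg/L replicates 2, 3, 4 and 6, and 168 and 156 bases in ion replicates 4 and 6, all PC1-positive. In PC1-negative pools it was 157, 159 and 158 bases in LCO 1 mg/L replicates 3, 5 and 6, 158 bases in LCO 10 mg/L replicate 1, and 159, 154 and 154 bases in ion replicates 1, 2 and 3. Of the 8 PC1-positive pools, 6 lay above every PC1-negative one. The means were 163 ± 4.35 bases in PC1-positive pools (SD, n = 8) and 157 ± 2.16 bases in PC1-negative pools (SD, n = 7), a difference of 6.23 bases. An exact two-sided permutation test within treatments, over 500 arrangements, gave p = 0.008, or 0.016 adjusted over the 2 library measures tested. The gap and the counts behind the scores come from the same reads, so this p-value is descriptive. The difference had the same sign in all 3 treatments, at 7.76 bases in LCO 1 mg/L, 4.56 in LCO 10 mg/L and 6.31 in ion. Controls were at 152 ± 5.98 bases (SD, n = 5).

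The total of estimated counts, the other library measure, was 24950529 to 49469173 in PC1-positive pools, 33405830 to 52060281 in PC1-negative pools and 32568890 to 63120039 in controls. The ranges overlapped widely, and the exact permutation test within treatments gave p = 0.236, also 0.236 after adjustment. It was higher on the positive side in ion and lower in LCO 1 and 10 mg/L, so the direction differed between treatments.

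**Figure D5:**
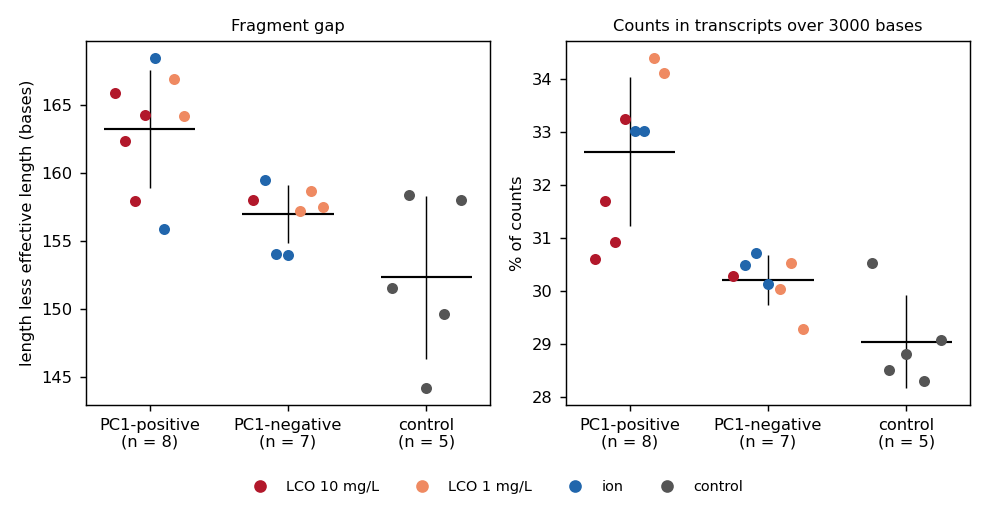
Left, gap between length and effective length in bases (y axis) and right, percentage of counts in transcripts over 3000 bases (y axis), for each PC1-positive, PC1-negative and control library (x axes), coloured by treatment, with means (lines) and SD (bars). The y axes do not start at 0. The PC1-positive pools average 163 bases and the PC1-negative pools 157 bases.

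With the gap as a further covariate, 1584 of 39858 transcripts tested had an edgeR adjusted p under 0.05 for the side, in place of 6726. Of the 1584, 772 were higher and 812 lower in PC1-positive pools. The gap moved with the side, which by itself makes the side difference less precise in this fit. The lower count therefore does not show how much of the side difference goes with the gap. ENSDART00000181742.1, ENSDART00000184838.1 and ENSDART00000186407.1 were still among them, and ENSDART00000162546.3 was not, although its fitted log2 fold change was 14.30, beside 15.07 without the covariate. The part of fragment length in the length pattern was not tested. Without the 5 libraries of LCO 10 mg/L, a setting chosen after seeing the data, the count was 5550 of 38938 tested. Of the same 38938, the transcripts whose sides did not overlap numbered 2526 higher and 1976 lower in place of 740 and 669, with fewer pools to keep apart. Without any single library the count of 6726 moved to between 4896 of 39706 and 7021 of 39638 tested.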

How the data were processed

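Whole zebrafish larvae were sequenced in 20 libraries. FastQC 0.11.5 and cutadapt 1.18 are named in the submitters' processing notes, as is kallisto 0.45.0, which estimates counts per transcript, and build GRCz11. Their settings are not given in the sources used here. The authors deposited, per library and transcript, the estimated count (an expected count, since reads are shared among transcripts), TPM, length and effective length. The deposited TPM served to give levels per length only. For the gap, transcripts over 3000 bases were used.

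Estimated counts were rounded. Transcripts were kept by filterByExpr (minimum count 10) with treatment and side, leaving 39858 and at least 99.87% of counts. Libraries were scaled by TMM and tested by glmQLFTest in edgeR 4.0.16 (R 4.3.3), two-sided, with the SE taken as the log2 fold change over the square root of F. CPM values use TMM over all 20 libraries, and average log2 CPM is that of edgeR. The method was checked on simulated counts. There the sides were given beforehand, so the check does not cover sides set from the counts themselves. Totals were 24950529 to 63120039 per library. No files were identical (0 pairs). Floors cover counting error only.

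Pools were assigned to sides by the first component of these counts, and treatments by the sample titles. The sides, lists and tests were chosen with earlier results of these data known. Named transcripts were the 2 largest fitted differences per direction with an average log2 CPM of at least 1 and no overlap between sides. The same limit was set for the interaction of LCO less ion, where none was called. Gene lists planned for the case that symbols were found could not be run, and no sequences are shown. Alternatives were DESeq2 1.42.0, limma-voom (limma 3.58.1), other scaling, filters and covariates, a replicate block, and leaving out each library.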

Additional observations from a re-analysis of the deposited data

Results flagged for a closer look

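Libraries were compared within each side and within controls over 40 groups of values. By Dixon's criterion, 5 values stood apart from the rest of their group. For independent groups, chance alone would mark about 1 in 20. These groups share libraries, and the sides and several of the lists were set from the same counts. That rate therefore need not hold here, and the 5 values are a description only. Ion replicate 3, among PC1-negative pools, held 35 of the 74 transcripts whose median was 0 on that side, and 81.7 CPM of them in all, where the other 6 PC1-negative pools held at most 35.9 CPM. LCO 10 mg/L replicate 4, among PC1-positive pools, held 34 of the 70 transcripts whose median was 0 there. LCO 10 mg/L replicate 2 had 14.2% of its counts in its 10 most abundant transcripts, against 8.41% to 9.59% in the other 7 PC1-positive pools. LCO 1 mg/L replicate 1 held 7.64 CPM of ENSDART00000186407.1, against at most 0.639 CPM in the other 7.

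The side difference of ENSDART00000183224.1 was called as different between treatments in edgeR (adjusted p = 0.0274, from 0.0121 to 0.0820 over the libraries left out in turn). The call was lost by limma-voom and without some single libraries. As the sides were set from these same counts, this p-value is descriptive. The fitted log2 differences were -9.41 in LCO 1 mg/L, 0.20 in LCO 10 mg/L and 1.79 in ion. The first of these is set against pools with 0 counts and depends on the prior count of the fit.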

How the results depend on the processing

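The count of 6726 transcripts for the side was 4005 with a replicate block (2054 higher, 1951 lower) and 1584 with the fragment gap as a covariate (772 higher, 812 lower). Each was of 39858 tested. The count moved less under the other settings run, from 4896 to 7021 without single libraries and 8036 of 39858 with DESeq2 as the highest. With no filter it was 5860 of 53004, and with an average log2 CPM of at least 1 it was 6976 of 24887. Pairing by replicate number was examined with treatment and side removed, a form chosen after seeing the data. Of 13 same-numbered pairs, 2 had deviations that correlated above 0.1 (range -0.15 to 0.25). Of 14 libraries, 4 correlated best with their own number. No chance reference was computed for these counts, and whether same-numbered pools shared a batch was not tested. Calls that depended on the setting were those of ENSDART00000162546.3, with an adjusted p of 0.514 by limma-voom, 0.0604 with the block and 0.0626 with the gap (log2 fold changes 12.18, 20.47 and 14.30), and of ENSDART00000181742.1, 0.0662 by limma-voom (14.34). The interaction with 2 degrees of freedom called 2 with no filter and 0 by limma-voom (2930 at an unadjusted p under 0.05), and between 0 and 4 without single libraries. LCO less ion gave between 0 and 3. Neither could be fitted without LCO 10 mg/L replicate 1, the single PC1-negative pool of that treatment. The difference in gap stayed past the threshold, and that in totals stayed short of it, under all alternatives run. All of these kept the same sides, so their p-values are descriptive too. Taking the gap from transcripts over 1000 bases gave the same gap in each library, so that alternative could not change the result. With 7 and 8 pools in unequal shares per treatment, small side differences within 1 treatment were not separable here. The causes of these changes were not tested.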

Other observations

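Ensembl gives identifier numbers broadly in the order in which transcripts were added. Of the 39858 tested transcripts, the 9965 with the highest identifier numbers held 44 of the 74 transcripts whose median was 0 in PC1-negative pools (59.5%) and 40 of the 70 whose median was 0 in PC1-positive pools (57.1%). It held 125 of the 740 transcripts that were higher in every PC1-positive pool (16.9%) and 125 of the 669 that were lower (18.7%), beside 9965 of all 39858. The sets with a median of 0 on 1 side were thus richer in late identifiers than the 740 and 669. They were also less abundant, with a median average log2 CPM of 0.21 and 0.34 against 3.96 and 4.14. Of the 740 and 669, the 69 and 66 that differed by at least 2-fold had 24 (34.8%) and 30 (45.5%) among the late identifiers. The part of abundance and of size of difference was not tested. These are counts over lists chosen by the side difference, with no test.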
